A study of Mus musculus with 6 samples.

Results

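The genes described here make, carry, bind or break down hyaluronan and its partner versican in the aortic root: Vcan, Has1, Has2, Has3, Cd44, Hyal1, Hyal2, Tnfaip6 and Hmmr. The members were all probe sets that the array's platform annotation pairs with exactly 1 of these 9 symbols. That gave 23 of the 45037 probe sets tested, for 8 of the 9 genes. Both probe sets of Hyal1 are shared with Naa80 in the annotation, so Hyal1 has no member.

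Transcript levels came from Affymetrix mouse arrays of dissected aortic roots, which hold the valve leaflets, the annulus and part of the ascending aorta. One group was homozygous for a mutant Klotho allele (klotho-deficient) and the other homozygous wild type; both were C57BL/6J albino mice aged 6.0 to 6.5 weeks. Each genotype was read on 3 arrays, 1 for each pool of 3 mice (9 mice in all); the spread behind each p-value is therefore that of pools, not of single mice. The labels name neither the nature of the mutant allele nor the sex of the mice. The comparison asks which transcripts of this matrix differ between the genotypes; in such whole-tissue pools, fewer cells of a type and less RNA per cell cannot be told apart.

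Hyaluronan is a long unsulfated sugar chain that hyaluronan synthases extrude through the cell membrane, and versican is a large chondroitin sulfate proteoglycan that binds it. Together they form the hydrated, compressible layer of heart valves and the loose matrix between vascular smooth muscle cells, and both are needed to form the valve cushions of the embryo. TSG-6, the product of Tnfaip6, crosslinks the chains by moving heavy chains of inter-alpha-trypsin inhibitor onto them. CD44 and RHAMM, the product of Hmmr, bind hyaluronan on cells, and hyaluronidases cut it.

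Versican and the hyaluronidase Hyal2 were the members whose brightest probe sets separated the genotypes, in opposite directions and with no test passed over all probe sets. That is 1 of 8 genes higher and 1 lower without overlap, against 6.63% and 6.84% of all genes. With so few genes these counts are no result about the members as a set. The Vcan signal was 11790 ± 1140 with the mutation and 8523 ± 1610 without it (SD, n = 3 each), and that of Hyal2 was 333.9 ± 56.7 against 685.1 ± 269. Has2 and Tnfaip6 were high on klotho-deficient replicates 2 and 3 and at wild-type level on replicate 1. Has1, Has3, Cd44 and Hmmr overlapped between the genotypes.

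Limma called 0 of the 23 member probe sets higher and 0 lower at an adjusted p of 0.05, as it called 0 of all 45037 probe sets in either direction (0%). At an unadjusted p under 0.05 it gave 2 member probe sets higher and 1 lower, against 2.86% and 2.5% of all probe sets. The genotypes did not overlap in 4 member probe sets that were higher and 1 that was lower, against 5.96% and 5.71% of all probe sets. The sign of the difference was positive for 17 of 23 members and negative for 6, against 51.5% and 48.5% of all probe sets, and the median log2 difference was 0.26 against 0.01. Several probe sets are assigned to the same gene, so these 23 are not 23 independent measurements. Over the 8 genes, each read by its brightest probe set, the median was 0.07.

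Signals are given in the linear units of the deposited table. The highest signal of 27 probe sets for Bacillus transcripts, which no mouse RNA should bind, was 161.8, and signals at or under it are called background here. Of the 23 member probe sets, 16 were above it on all 6 arrays and 20 on at least 1. Smooth muscle, endothelial and fibroblast markers of the root were present, all 8, 10 and 10 measured genes being above background. Kl, the mutated gene, gave 138.3, 217.4 and 189.1 on the klotho-deficient arrays and 166.7, 184.7 and 202.1 on the wild-type arrays (probe set 1451892_at). Those groups overlap, and the labels do not place the mutation relative to the probes, so this gene is no check of the genotypes. Its other probe set, 1423400_at, was at background on all 6 arrays. On klotho-deficient replicates 2 and 3 the Y-linked transcripts were at background. Kdm5d, for example, was at 16.1 and 5.8 there against 2512.1 to 3267.9 on the other arrays, so the pools were not balanced for sex. Xist, which female cells express, gave 19873.8 to 36290.2 over all 6 arrays, so the pools with Y-linked signal were not of males alone. Wild-type replicate 3 had a ratio of 3' to 5' Gapdh signal of 7.18, against 3.23 to 4.08 on the other arrays.

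**Figure D1:**
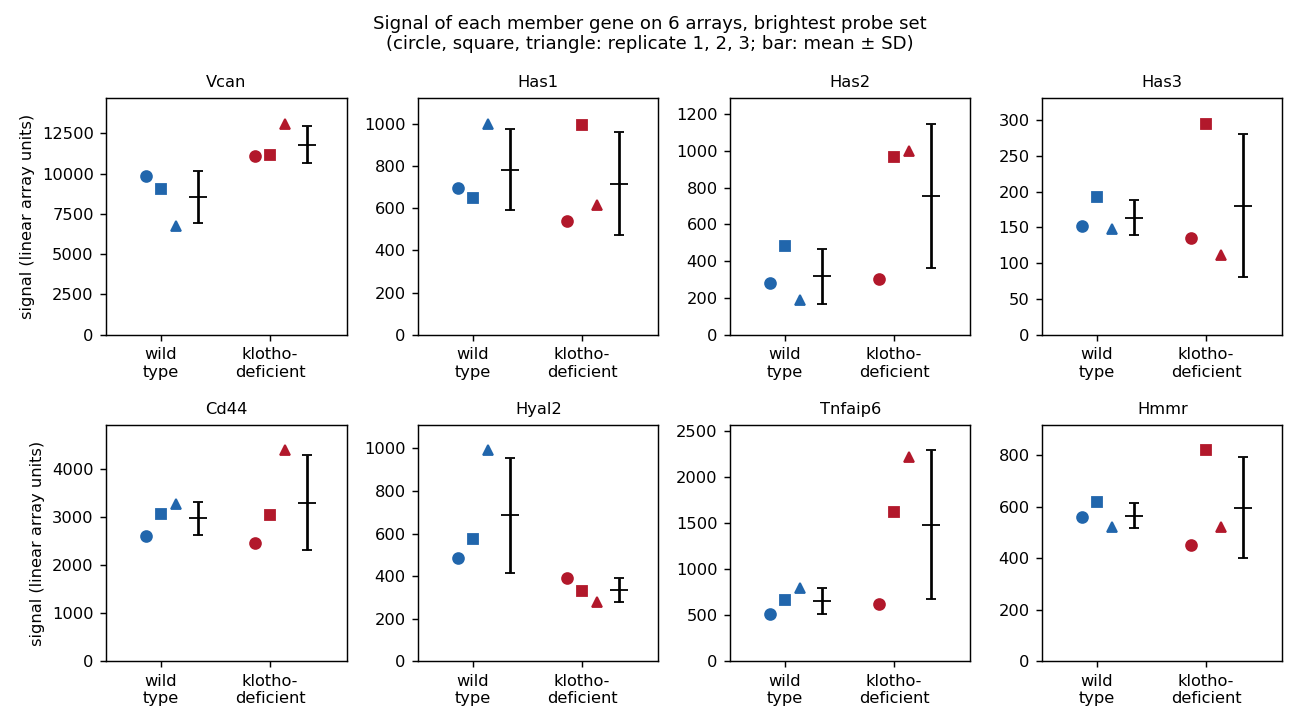
Linear array signal (vertical axis, starting at 0) of the 8 member genes on the 3 wild-type (blue) and 3 klotho-deficient (red) arrays, each gene by its brightest probe set; symbols mark the replicate number and bars the mean ± SD. Vcan and Hyal2 are the panels without overlap, and in Has2 and Tnfaip6 klotho-deficient replicate 1 (circle) lies among the wild-type arrays.

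The 300 bases around a start site of the 3 genes below, from 250 bases before to 50 after it, are shown because Vcan and Hyal2 separated the genotypes and Tnfaip6 was among the members with the widest differences. They are RefSeq sequences of GRCm38.p6, written 5' to 3' on the gene's strand. Capitals mark a match to any of 4 motifs searched on both strands: TATAAA, the cyclic AMP response element TGACGTCA, the AP-1 site TGANTCA and the clock E-box CACGTG. The windows lie at chr13:89742463-89742762 (Vcan, minus strand), chr9:107568913-107569212 (Hyal2, plus strand) and chr2:52037863-52038162 (Tnfaip6, plus strand).
Vcan: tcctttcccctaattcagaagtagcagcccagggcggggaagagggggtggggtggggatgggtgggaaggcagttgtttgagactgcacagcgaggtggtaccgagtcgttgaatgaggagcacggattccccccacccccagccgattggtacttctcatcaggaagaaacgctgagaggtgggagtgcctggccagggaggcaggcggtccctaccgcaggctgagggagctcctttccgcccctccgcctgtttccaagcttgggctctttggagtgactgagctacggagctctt
Hyal2: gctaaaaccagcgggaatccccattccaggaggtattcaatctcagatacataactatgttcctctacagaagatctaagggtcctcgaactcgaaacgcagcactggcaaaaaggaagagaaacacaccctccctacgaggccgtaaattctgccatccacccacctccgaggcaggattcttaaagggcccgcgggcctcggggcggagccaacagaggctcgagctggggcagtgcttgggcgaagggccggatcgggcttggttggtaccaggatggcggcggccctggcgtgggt
Tnfaip6: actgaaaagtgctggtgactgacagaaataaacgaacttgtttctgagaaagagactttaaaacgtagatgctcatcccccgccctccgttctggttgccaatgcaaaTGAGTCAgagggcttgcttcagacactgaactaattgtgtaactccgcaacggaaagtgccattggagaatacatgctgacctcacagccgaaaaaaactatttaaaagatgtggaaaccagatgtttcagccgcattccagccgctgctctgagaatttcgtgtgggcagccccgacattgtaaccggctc
The Tnfaip6 window holds 1 AP-1 match, 142 bases before the start, a motif found in 7.81% of 32851 promoter windows of the table. The Vcan and Hyal2 windows hold none of these 4 sets of letters. GC content was 61% for Vcan, 58.3% for Hyal2 and 47% for Tnfaip6, against a median of 52.7%, and the CG dinucleotides numbered 12, 18 and 12 against a median of 7. Of the other members, Has1 has 1 match to TGACGTCA, 83 bases before its start, a motif in 1.79% of windows, while Cd44, Hyal1 and Hmmr have no match. Has2 and Has3 have no window in the table used here. A match is a description of the letters only.

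Versican, the proteoglycan core of this matrix, was read by 8 probe sets. The brightest, 1427256_at, gave 11104.9, 11156.4 and 13105.6 on klotho-deficient replicates 1, 2 and 3, and 9825.4, 9022.0 and 6721.2 on the wild-type arrays. The lowest klotho-deficient array was above the highest wild-type array, and wild-type replicate 3 was the lowest of all. The log2 difference was 0.48 ± 0.23 (SE), with a 95% interval of -0.08 to 1.05, and did not pass in limma (adjusted p = 0.934). Without wild-type replicate 3 it was 0.32.

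A second bright Vcan probe set, 1421694_a_at, gave 6972.7, 9018.0 and 9145.5 against 6972.2, 5963.9 and 4415.7. Its groups touch, klotho-deficient replicate 1 and wild-type replicate 1 being almost level. It differed by 0.55 ± 0.26 on the log2 scale (limma adjusted p = 0.927).

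Probe set 1447887_x_at gave 2209.3, 3288.4 and 3237.6 against 1836.6, 2012.8 and 1514.4. Here too every klotho-deficient array was above every wild-type array, with a log2 difference of 0.69 ± 0.25 and a limma unadjusted p of 0.0335 (adjusted p = 0.909). Over the alternatives that difference ran from 0.32, with a covariate for Y-linked transcripts, to 0.88. Probe set 1427257_at gave 5296.6, 7134.2 and 6354.2 against 6237.4, 5183.7 and 4333.3. The groups overlap there, and the log2 difference was 0.26 ± 0.24.

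The other Vcan probe sets above background, 1433043_at and 1433044_at, share 1 array pattern that differs from that of the brightest. The former gave 1440.3, 2038.8 and 669.7 on the klotho-deficient arrays and 656.5, 674.1 and 486.0 on the wild-type arrays. It was high on klotho-deficient replicates 1 and 2, whereas replicate 3, which was highest in 1427256_at, lay at wild-type level. Its log2 difference was 1.06 ± 0.44 and that of 1433044_at 0.47 ± 0.26, both with overlapping groups and limma adjusted p of 0.926 and 0.943. The annotation used here does not say which versican transcripts each probe set reads.

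The remaining Vcan probe sets, 1447586_at and 1459767_x_at, were at background on all 6 arrays, so no fold is given for them. The former, at 4.9 to 20.3, was nonetheless 1 of the 2 member probe sets higher at an unadjusted p under 0.05 and 1 of the 4 without overlap. Of the 6 Vcan probe sets above background, all 6 had a positive difference, from 0.26 to 1.06 on the log2 scale, against 51.5% of all probe sets. In 3 of them the groups did not overlap, against 5.96% of all probe sets that were higher in this way. Of these 3, 1 is 1421694_a_at, whose groups touch. The 6 are repeated readings of 1 gene in the same pools, so these counts are not of separate measurements.

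**Figure D2:**
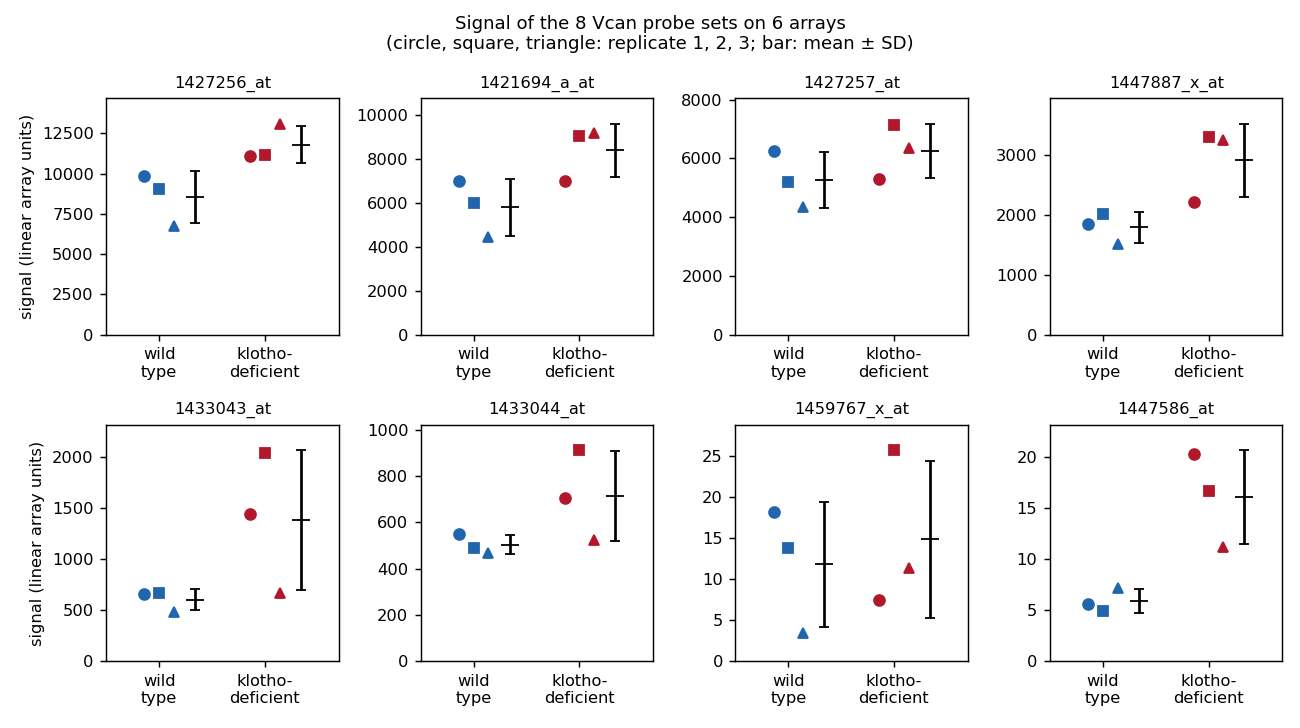
Linear array signal (vertical axis, starting at 0) of the 8 Vcan probe sets on 3 wild-type (blue) and 3 klotho-deficient (red) arrays, in order of mean log2 signal; symbols mark the replicate number and bars the mean ± SD. The last panels, 1459767_x_at and 1447586_at, are at background on every array, and 1433043_at is high on klotho-deficient replicates 1 and 2 only.

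Of the hyaluronan synthases, which polymerise the chain at the cell membrane, Has2 differed most. Has2 is the synthase of the embryonic valve cushions. Its brightest probe set, 1449169_at, gave 302.6, 966.4 and 1000.1 on klotho-deficient replicates 1, 2 and 3 and 278.3, 483.8 and 190.1 on the wild-type arrays. Klotho-deficient replicates 2 and 3 were above every wild-type array, and replicate 1 was within the wild-type range. The log2 difference was 1.17 ± 0.58, with a 95% interval of -0.24 to 2.59 (limma adjusted p = 0.936).

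The other Has2 probe set, 1418678_at, gave 99.2, 227.5 and 180.4 against 104.5, 111.9 and 60.2. It was above background only on klotho-deficient replicates 2 and 3, so no difference is read from it.

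Has1 (1420590_at) gave 539.6, 997.3 and 616.7 on the klotho-deficient arrays and 698.5, 650.2 and 1003.5 on the wild-type arrays. The groups overlap fully, 1 array of each genotype being high. The log2 difference was -0.15 ± 0.32 with an interval of -0.93 to 0.63, and it was positive when klotho-deficient replicate 1 (0.03) or wild-type replicate 3 (0.04) was left out.

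Has3 (1420589_at) was close to background, at 134.4, 295.2 and 111.7 against 151.2, 192.3 and 147.2. Replicate 2 of each genotype was the array above 161.8, and the log2 difference was 0.02 ± 0.40, with an interval of -0.96 to 0.99. These intervals leave room for a change of more than 0.6 on the log2 scale in either direction for both Has1 and Has3.

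Tnfaip6 was high on the same klotho-deficient arrays as Has2, while in wild type replicate 3 was its highest array and the lowest for Has2. Probe set 1418424_at gave 623.3, 1620.6 and 2220.0 on klotho-deficient replicates 1, 2 and 3 and 517.1, 667.6 and 797.1 on the wild-type arrays. Replicates 2 and 3 were above every wild-type array, while replicate 1 lay between wild-type replicates 1 and 2. Tnfaip6 differed by 1.01 ± 0.50 on the log2 scale, with an interval of -0.21 to 2.22 (limma adjusted p = 0.936).

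The size of both differences depends on which klotho-deficient arrays are read. Without replicate 1 the log2 difference was 1.74 for Has2 and 1.54 for Tnfaip6, and without klotho-deficient replicate 3 it was 0.88 and 0.63. A fit with a covariate for the arrays whose Y-linked transcripts were at background, which in effect sets klotho-deficient replicate 1 against the 3 wild-type arrays, gave 0.04 for Has2 and -0.06 for Tnfaip6. The same fit gave -0.74 for Hyal2 and 0.40 for the brightest Vcan probe set. For 3 other Vcan probe sets the difference was smaller with the covariate, at 0.29 for 1421694_a_at, 0.32 for 1447887_x_at and 0.03 for 1427257_at. For 1433043_at and 1433044_at it was larger, at 1.27 and 0.49.

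The summed signals of cartilage and of neutrophil markers were also highest on klotho-deficient replicates 2 and 3. The summed signal of 10 cartilage markers was 20190 and 39910 there, against 7727 on replicate 1 and 9571 to 12360 in wild type. That of 9 measured neutrophil markers was 2129 and 2238, against 1392 on replicate 1 and 737.6 to 1205 in wild type. Mpo, Elane, Csf3r and Cxcr2 were at background on every array. S100a9 was the largest part of the neutrophil sum on replicates 2 and 3, at 886.8 and 1100.2. Of the 9 genes 7 had a positive difference, but Ltf was highest on wild-type replicate 2, at 233.4. The 10 macrophage markers summed to 65930 to 83120 in klotho-deficient and 58910 to 86290 in wild-type roots. The part of sex, cartilage and neutrophils in the Has2 and Tnfaip6 values was not tested.

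Hyal2, a hyaluronidase anchored to the cell surface that cuts long chains into intermediate fragments, was read by 1 probe set. Probe set 1448679_at gave 392.2, 330.7 and 278.9 on klotho-deficient replicates 1, 2 and 3 and 487.8, 576.5 and 991.0 on the wild-type arrays. Every klotho-deficient array was below every wild-type array, and wild-type replicate 3 stood highest. The log2 difference was -0.98 ± 0.33, a 1.98-fold lower level in klotho-deficient roots, with an interval of -1.78 to -0.19. Its limma unadjusted p was 0.023 and its adjusted p 0.876, so it did not pass over all probe sets.

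The Hyal2 difference was -0.68 without wild-type replicate 3. Endothelial markers were highest on that array too: 10 genes summed to 70750 there, to 36820 and 38700 on wild-type replicates 1 and 2, and to 32900 to 41270 in klotho-deficient roots. Mesothelial and epithelial markers summed to 61900 on it, to 41040 and 37410 on wild-type replicates 1 and 2, and to 24510 to 40220 in klotho-deficient roots. Their part, and that of the Gapdh ratio, in the Hyal2 level of wild-type replicate 3 was not tested.

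The arrays ranked by Hyal2 stand in exactly the reverse order of the arrays ranked by the brightest Vcan probe set. From klotho-deficient replicate 3 through replicates 2 and 1 and wild-type replicates 1, 2 and 3, Hyal2 goes up at each step and Vcan goes down. The Vcan step between klotho-deficient replicates 2 and 1 is small, from 11156.4 to 11104.9. Vcan probe sets 1427257_at, 1447887_x_at, 1433043_at and 1433044_at do not follow this order. The pair was singled out as the strongest correlation among all member pairs (r = -0.99). The reverse order is a description of 6 arrays that share their libraries and scaling, and part of it is the separation of the genotypes.

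The lysosomal hyaluronidase Hyal1 could be read only together with its neighbour Naa80. The probe sets assigned to both gave log2 differences of -0.04 and -0.08 with overlapping groups. The brighter, 1449954_at, gave 3891.5, 1939.8 and 4060.7 against 3956.0, 3424.6 and 2681.0.

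Cd44, the main cell-surface receptor for hyaluronan, was read by 4 probe sets, none of which separated the genotypes. The brightest, 1434376_at, gave 2463.8, 3032.5 and 4380.9 on the klotho-deficient arrays and 2601.8, 3049.9 and 3266.5 on the wild-type arrays. Klotho-deficient replicate 3 was the highest array and replicate 1 the lowest, with wild type between them. The log2 difference was 0.11 ± 0.28, with an interval of -0.56 to 0.78, and over the 4 probe sets differences ran from -0.11 to 0.11.

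Probe set 1423760_at showed the same high array, at 2336.8, 2653.1 and 4075.9 against 2978.8, 2710.0 and 2918.1. Probe set 1452483_a_at gave 947.2, 959.6 and 1240.5 against 1113.9, 875.6 and 1450.2, with wild-type replicate 3 highest. The dimmest, 1443265_at, lay at 152.3 to 280.5.

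Hmmr, which encodes the receptor RHAMM and is also a mitotic spindle protein, was read by 5 probe sets. The brightest, 1427541_x_at, gave 450.3, 819.4 and 521.9 against 559.6, 617.7 and 520.0. Klotho-deficient replicate 2 was the highest and replicate 1 the lowest, and the log2 difference was 0.03 ± 0.28 with an interval of -0.65 to 0.72. Over the 4 probe sets above background on at least 1 array the differences ran from -0.24 to 0.11, and 1450157_a_at was at background on every array. The summed signal of 15 proliferation markers was also highest on klotho-deficient replicate 2, at 11900, against 9188 and 7648 on replicates 1 and 3 and 8192 to 11110 in wild type.

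**Figure D3:**
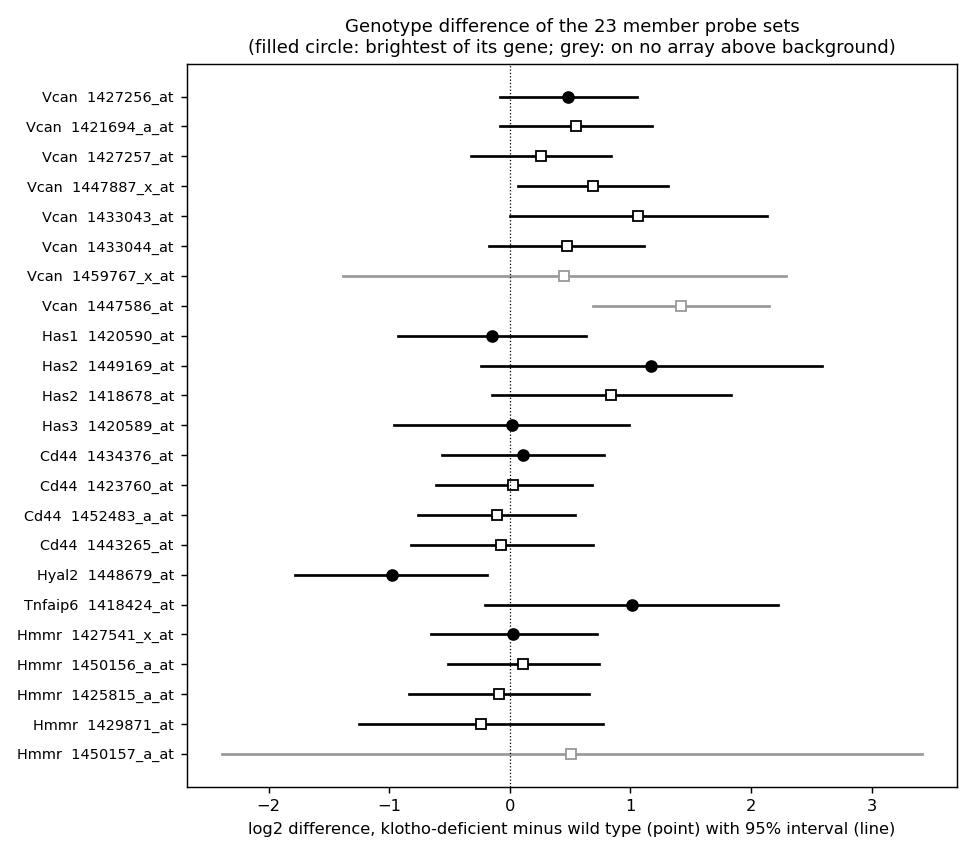
Log2 difference of klotho-deficient minus wild type (horizontal axis) for the 23 member probe sets with its 95% interval from limma; filled circles mark the brightest probe set of each gene and grey marks probe sets at background on every array. The intervals of 1448679_at (Hyal2), 1447887_x_at (Vcan) and the background-level 1447586_at (Vcan) do not include 0, before adjustment for 45037 tests.

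**Figure D4:**
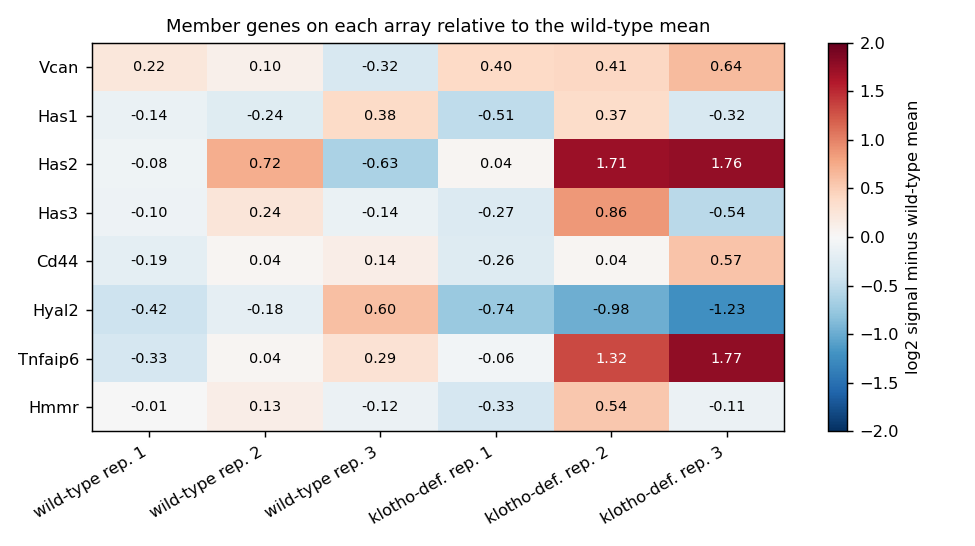
Log2 signal of the 8 member genes on each array minus the gene's wild-type mean, by the brightest probe set; red is above and blue below that mean. Klotho-deficient replicates 2 and 3 read 1.71 and 1.76 for Has2 and 1.32 and 1.77 for Tnfaip6, replicate 1 reads 0.04 and -0.06, and Hyal2 is negative on all 3 klotho-deficient arrays.

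The genes whose array pattern was most like a member's were sought among 12150 genes above background on all 6 arrays, by Pearson correlation of log2 signal over the 6 arrays. With so few arrays and so many genes, high values are found for most patterns. Nearest to Vcan were Bckdk, Kdm2b and Gtf3c2 (r = 0.993, 0.990 and 0.989). Nearest to Has2 were Spred1, Tfpi and Endou (0.993, 0.987 and 0.984), and nearest to Tnfaip6 were Lair1, Gfra1 and Uxs1 (0.984, 0.983 and 0.983). For Cd44 they were P2rx1, Slc25a45 and Ctsk (0.998, 0.993 and 0.991).

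The wider pathway was read through 10 lists holding 101 measured genes, 4 of them members, each gene by its brightest probe set. Limma called 0 of the 101 higher and 0 lower at an adjusted p of 0.05, as for all 18193 genes (0%). Before adjustment 5 were higher and 1 lower at p under 0.05, against 2.87% and 2.63% of all genes. The genotypes did not overlap in 9 that were higher and 6 that were lower, against 6.63% and 6.84%. The median log2 difference was 0.10, against 0.00 over all genes.

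Hyaluronan receptors and binding proteins held 3 of the 5 higher genes. Itih3 and Itih4 encode members of the inter-alpha-trypsin inhibitor heavy chain family; ITIH3 is a heavy chain that TSG-6 transfers to hyaluronan. Itih3 gave 1975.1, 2266.8 and 3240.6 on the klotho-deficient arrays and 1079.1, 1354.3 and 905.6 on the wild-type arrays. All klotho-deficient arrays were above all wild-type arrays, at a log2 difference of 1.15 ± 0.28 (limma unadjusted p = 0.0061, adjusted p = 0.775).

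Itih4 gave 23095.6, 12612.4 and 24809.2 against 11489.4, 9069.9 and 5581.7, also without overlap (1.21 ± 0.39, limma adjusted p = 0.853). Stab2, a scavenger receptor that clears hyaluronan from the circulation, gave 259.7, 266.5 and 260.5 against 176.1, 169.7 and 207.3 (0.51 ± 0.19, limma adjusted p = 0.91). Of the 15 genes of this list 11 had a positive difference, against 50.4% of all genes, and the median was 0.24. The 11 include Habp2 and Ambp, which were at background on every array, and Stab2, whose signals were near it. Itih1, Itih2 and Itih5 overlapped between genotypes, at 0.24 ± 0.29, -0.20 ± 0.48 and -0.18 ± 0.54, so the heavy chain genes did not share 1 sign.

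Lists for making the chain and for degrading it had no gene at an unadjusted p under 0.05. Among 9 genes of nucleotide sugar supply the median was 0.06, and the gene of smallest p was Pgm3, an enzyme of the UDP-N-acetylglucosamine pathway, at 1683 ± 149 against 1307 ± 167 without overlap. Ugdh, which makes the UDP-glucuronic acid of the chain, was 0.08 ± 0.22. Of 8 other degrading enzymes, the hyaluronidases Hyal3, Hyal4, Hyal5 and Spam1 were at background on every array. Cemip and Cemip2, which take part in cutting hyaluronan outside lysosomes, were 0.19 ± 0.23 and -0.10 ± 0.29, and Hexa, a lysosomal hexosaminidase, measured 15380 ± 1270 against 20420 ± 3910.

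Genes for the chondroitin sulfate chains of versican had mostly negative differences. Of 18 measured genes 13 had a negative difference, against 49.6% of all genes, with a median of -0.24. The 13 include Xylt2, at background on every array. Without overlap 3 were lower and 1 higher, against 6.84% and 6.63% of all genes. The list's mean log2 deviation was -0.40 and -0.17 on klotho-deficient replicates 1 and 2 but 0.19 on replicate 3, the highest of the 6 arrays, against 0.06 to 0.17 in wild type. Chst3, a chondroitin 6-sulfotransferase, gave 136.9, 193.5 and 153.1 on the klotho-deficient arrays and 302.0, 223.9 and 268.1 on the wild-type arrays. Every klotho-deficient array was below every wild-type array, at signals near background (-0.72 ± 0.24, limma unadjusted p = 0.022, adjusted p = 0.865). Chsy1, a chondroitin synthase, was 0.01 ± 0.28.

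The proteases that cleave versican shared no sign, 4 of 8 having a positive difference. The 4 include Adamts20, at background on every array. They also include Mmp7, whose brightest probe set was above background only on klotho-deficient replicate 2, at 171.6. Adamts1 gave 28886.4, 21412.1 and 29972.4 against 16796.5, 16482.5 and 21216.6, so that the lowest klotho-deficient array was just above the highest wild-type array (0.55 ± 0.24, limma adjusted p = 0.926). Adamts4, Adamts9 and Adamts15 had negative differences of -0.57 ± 0.35, -0.27 ± 0.21 and -0.44 ± 0.27. Of these Adamts9 did not overlap, at 967.3, 1035.0 and 809.2 against 1121.6, 1226.8 and 1037.0. Lecticans other than versican and the link proteins had a median of 0.02; Ncan, the gene of smallest p, measured 210.8 ± 94 against 283.1 ± 53.7.

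Matrix proteins that bind versican had a median of -0.01, and genes around CD44 of 0.11. Tnc, which encodes tenascin-C, gave 1785.7, 3331.4 and 5353.7 on klotho-deficient replicates 1, 2 and 3 and 1801.6, 1915.9 and 1370.2 in wild type, replicate 1 lying within the wild-type range as for Has2 and Tnfaip6. Met, a receptor for which CD44 variants act as co-receptor, gave 1315.3, 1189.6 and 1222.8 against 1796.2, 1497.1 and 1822.2, without overlap (-0.45 ± 0.20, limma adjusted p = 0.926).

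Among 14 genes known to induce Has2 or Tnfaip6, or to mediate such induction, 12 had a positive difference, against 50.4% of all genes. The median was 0.29, against 0.00 over all genes. The 12 include Il6, the background-level Il1a, and Cebpb, Pdgfb and Tgfb1 at 0.05 ± 0.50, 0.08 ± 0.38 and 0.12 ± 0.39. The list's mean log2 deviation was -0.16, 0.46 and 0.75 on klotho-deficient replicates 1, 2 and 3, against -0.49 to -0.19 in wild type. Replicates 2 and 3 are the arrays with Y-linked transcripts at background. Ptgs2, the inducible cyclooxygenase, gave 3428.9, 8789.7 and 8634.9 against 1096.2, 1457.3 and 2016.9, again with klotho-deficient replicate 1 the lowest of its group but here above all wild-type arrays. Il6 was above background only on klotho-deficient replicate 2, at 808.3. The cytokines Il1a and Tnf were at background on every array, and Il1b gave 283.1, 909.9 and 913.4 against 566.2, 466.2 and 555.0.

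In the expanding cumulus of the ovary, Has2, Tnfaip6, Ptgs2 and Ptx3 are induced together and Vcan, Cd44 and Adamts1 join the same matrix. All 7 had a positive difference here, against 50.4% of all genes, and their median was 0.61 against 0.00. Limma adjusted p ran from 0.751 to 0.987, and 4 of the 7 are members. Cd44 counts as positive at 0.11 ± 0.28. The list was chosen with earlier results of these data known, so the common sign is no independent support. With the covariate for Y-linked transcripts, those members gave 0.40 for Vcan, 0.04 for Has2, -0.06 for Tnfaip6 and -0.26 for Cd44. Ptx3, which encodes the hyaluronan matrix protein pentraxin 3, gave 1147.8, 2910.0 and 5273.5 on klotho-deficient replicates 1, 2 and 3 and 1537.1, 1881.5 and 1702.2 in wild type. Replicates 2 and 3 were thus above and replicate 1 below every wild-type array, at a log2 difference of 0.61 ± 0.55.

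**Figure D5:**
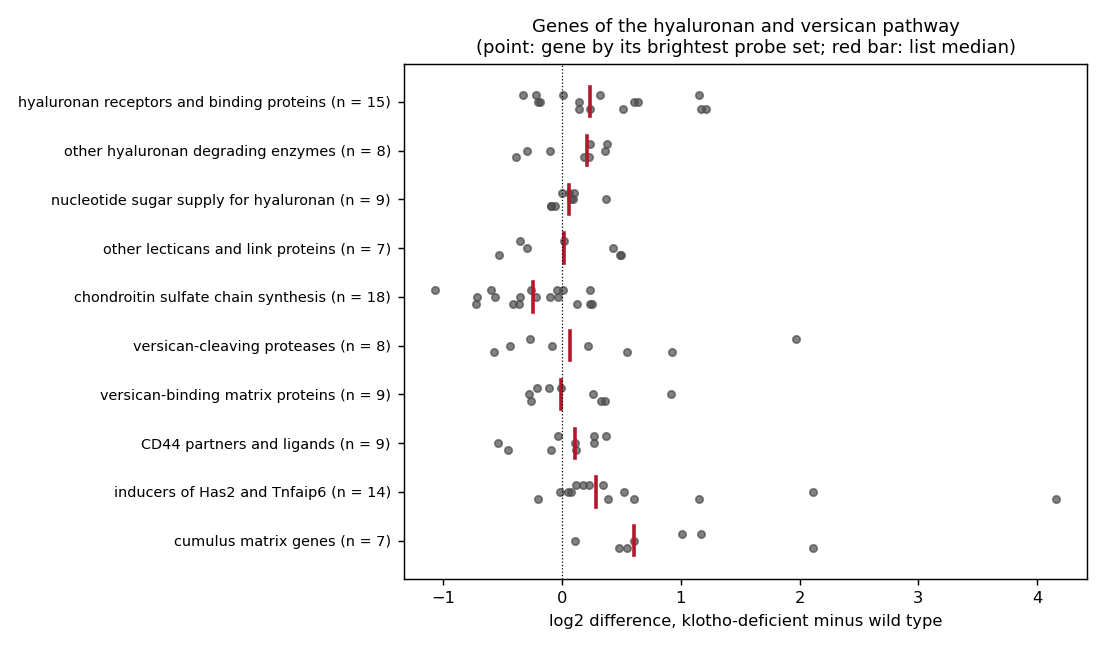
Log2 difference of klotho-deficient minus wild type (horizontal axis) for the genes of the 10 pathway lists, each gene by its brightest probe set, with the list median as a red bar. Chondroitin sulfate chain synthesis has its median at -0.24 and the cumulus matrix genes at 0.61; the point at 4.16 is Il6, which was at background in wild type.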

How the data were processed

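The deposited table holds intensities on a linear scale for 45101 probe sets on 6 arrays. RMA is named, with no version, in the submitters' processing notes, which do not say how the linear scale arose. With 2% trimmed from both ends, every array had a mean of 1500, and the medians were 425.6 to 556.6, so the authors' values share a mean but not a distribution. No genome build is given for the arrays.

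The log2 of each intensity was used as it stands, without pseudocount or normalization. The 64 Affymetrix controls were left out. The annotation gave 1 symbol to 34945 probe sets and several to 932; RefSeq's GRCm38.p6 table held 34741 of the gene identifiers and changed 0 symbols. Limma 3.58.1 (R 4.3.3) tested the genotype difference two-sided with lmFit and eBayes, with Benjamini-Hochberg adjustment over 45037 probe sets (4 residual and 2.18 prior degrees of freedom); all p-values come from it. An exact permutation test of 3 against 3 arrays cannot go below p = 0.10. Means are ± SD over 3 arrays and log2 differences ± SE. Precision is limited by the number of arrays. The fit was also run on simulated data with noise drawn independently for every probe set and array. Those data lack the differences between pools, so no conclusion is drawn from them.

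Named genes were all members, the list genes with an unadjusted p under 0.05 that were above background (or the 1 of smallest p), and the 3 genes nearest in pattern to 4 members; other list genes named were singled out after their values were seen. Members, lists and alternatives were chosen with earlier results of these data known. Motifs were chosen after the values were seen. Alternatives were quantile normalization, median centring, a replicate block, a filter on dim probe sets, offsets of 16 and 100, a trended and robust prior, array weights, 2 summaries per gene, a covariate for Y-linked transcripts and each array left out. Plots came from matplotlib 3.10.9 (Python 3.11.15).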

Additional observations from a re-analysis of the deposited data

How the results depend on the processing

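Over 17 alternatives the member probe sets called and the pathway genes called stayed at 0. Over all probe sets the calls went from 0 to 1 when dim probe sets were left out or an offset of 100 was added, and to 2 with a trended and robust prior; each is a probe set of Dbp, which is no member. The log2 difference kept its sign in all 17 for Vcan (0.32 to 0.67), Has2 (0.04 to 1.74) and Hyal2 (-1.19 to -0.66). That of Tnfaip6 ran from -0.06, with the covariate for Y-linked transcripts, to 1.54. That covariate also turned Has3 (-0.27), Cd44 (-0.26) and Hmmr (-0.33). In effect it sets klotho-deficient replicate 1 against the wild-type arrays, so these values are those of 1 array. Array weights turned Has3 (-0.10), Cd44 (-0.06) and Hmmr (-0.15), and the mean of its probe sets turned Cd44 (-0.01); they gave 0.41 for Has2 and 0.54 for Tnfaip6. The cause of the changes with array weights, or of the levels on klotho-deficient replicate 1, was not tested. With each array left out in turn the differences ran from -0.42 to 0.04 for Has1, -0.41 to 0.29 for Has3, -0.11 to 0.30 for Cd44 and -0.22 to 0.21 for Hmmr, with a sign that turned in each. With the replicate number as a block, 0 members were called and Vcan stayed at 0.48 (limma adjusted p = 0.808). The same numbers correlated at 0.21, 0.06 and 0.27 in their deviations from the group means, and klotho-deficient replicate 2 correlated more with wild-type replicate 1 (0.16), so they were not taken to pair the arrays. Has3, the dimmer Has2 probe set, 2 Vcan probe sets and 2 Hmmr probe sets were at or near background, where the arrays resolve little.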
